A study of Homo sapiens with 4 samples.

Results

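Binding of BCL6, the transcriptional repressor that keeps B cells in the germinal centre state, was examined at 9 co-stimulation and checkpoint ligand genes: CD40, CD80, CD86, CD274, PDCD1LG2, TNFRSF14, ICOSLG, SLAMF1 and CD70. The genes were fixed by name, with earlier results of these data known. A peak was assigned to a gene where its summit, the position of strongest enrichment, lay in the gene or within 50 kb of either end in the RefSeq annotation of hg38. This rule gave 15 of the 8773 deposited peaks, at 6 of the 9 genes. All 9 were found among the 19974 protein-coding genes of chromosomes 1 to 22 and X.

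The data are CUT&RUN peak lists from the established cell line SUDHL5, a diffuse large B-cell lymphoma. In CUT&RUN an antibody brings a nuclease fused to protein A/G to its target in isolated nuclei, and the released DNA is sequenced. The 2 biological replicates with a BCL6 antibody (BCL6 replicates 1 and 2) each have a peak list, and both came from cells in standard medium with no treatment named. The 2 normal rabbit IgG samples of the same line were not analysed here, so no comparison with an IgG library was made in this report. Whether the authors' peak caller used an IgG library as its control was not given. All samples are 1 cell line, so the peaks describe that line alone.

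On a B cell these molecules speak to T cells. CD40 is a receptor that receives help from CD40 ligand on T cells. CD80 and CD86, the B7 molecules, bind CD28 and CTLA4, and ICOSLG binds ICOS on follicular helper T cells. CD274 (PD-L1) and PDCD1LG2 (PD-L2) bind the inhibitory receptor PD-1, and TNFRSF14 (HVEM) binds the inhibitory receptor BTLA. CD70 is the ligand of CD27, and SLAMF1 is a receptor that binds itself on the opposite cell. In germinal centre B cells BCL6 recruits co-repressors to genes of activation and plasma cell differentiation, and CD80 and genes of the CD40 response are among its reported targets.

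The lists held 5237 and 3536 peaks in replicates 1 and 2, of which 5230 and 3529 lay on chromosomes 1 to 22 and X. Each peak carries the authors' fold enrichment of the summit over its local background and −log10 q, the strength of evidence after correction for multiple tests, whose lowest values were 1.31 in each list. Read totals are unknown. The summit pileup, the number of fragments over the summit, was recovered from the deposited values, with medians of 23 and 21. A shared base with the other list was found for 25.7% of the replicate 1 peaks and for 38.4% of the replicate 2 peaks.

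CD86, SLAMF1 and CD70 had a summit within 50 kb in both lists. CD274, PDCD1LG2 and ICOSLG had one in replicate 1 only, and CD40, CD80 and TNFRSF14 had none in either list. No gene had one in replicate 2 only. The 6 of 9 with a summit in at least 1 list compare with 37.3% of all protein-coding genes, and the same 6 make up the count for replicate 1, where the share of all genes is 29.5%. In replicate 2 the count is 3 of 9, against 23.3%. The 3 of 9 with a summit in both lists (33.3%) compare with 15.6% of all protein-coding genes. The 3 of 9 with a summit in replicate 1 only compare with 13.9%, the 0 with a summit in replicate 2 only with 7.77%, and the 3 with none with 62.7%.

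At none of the 9 genes did a peak of one list overlap a peak of the other. A reproducible region, formed by overlapping peaks of both lists, had its summit within 50 kb of 0 of 9 genes, against 10.2% of all protein-coding genes. At that share 0.915 of 9 genes would have had one, and each gene is 11.1 percentage points of the group, so the 0 lies within 1 gene of the background. All 3 genes with summits in both lists therefore had them at different places. Among all protein-coding genes with summits in both lists, 1078 of 3109 (34.7%) likewise had no reproducible region in the window, which is 5.4% of all genes tested. Values from a set of 9 genes and 2 libraries are given here as a description, without a test.

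**Figure D1:**
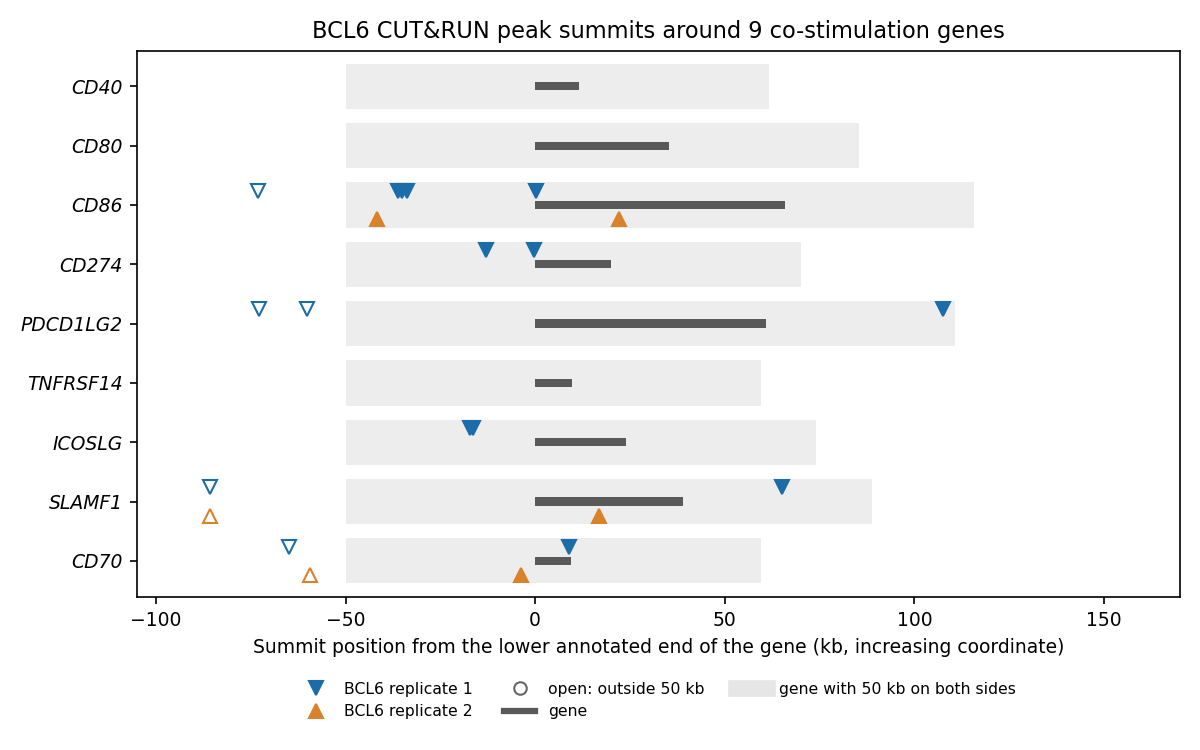
Summits of BCL6 peaks around each of the 9 genes, as distance in kb from the lower annotated end of the gene; the dark bar is the gene, the grey band the gene with 50 kb on both sides, downward triangles replicate 1 and upward triangles replicate 2, with open symbols outside the band. CD40, CD80 and TNFRSF14 have no symbol, and filled symbols of the 2 replicates do not coincide at any gene.

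CD86, a B7 ligand of CD28, had the most peaks of the 9 genes, 4 in replicate 1 and 2 in replicate 2. The gene lies on chromosome 3 from 122055362 to 122121136, on the plus strand, and the promoter table gives it 2 starts, 22.4 kb apart. Each start carried a peak of a different replicate. The replicate 1 peak, from 122055113 to 122055820, covered the first start, with its summit 177 bp inside the gene. Its fold enrichment was 4.64, its −log10 q 8.87 and its pileup 31 (exact Poisson 95% interval 21.1 to 44.0). The replicate 2 peak, from 122077408 to 122077718, lay beside the other start, with its summit 214 bp before it. Its fold enrichment was 4.23, its −log10 q 4.49 and its pileup 19 (11.4 to 29.7). The 2 peaks were 21.6 kb apart, and neither had a counterpart in the other list.

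The sequences before these starts, and that before the start of CD274 described below, are shown because they are the promoters of these genes in the RefSeq promoter table that a peak covered wholly or in part; CD40, PDCD1LG2 and CD70 had no entry there. Each line gives 250 bases up to the annotated start from RefSeq (GRCh38.p14), on the plus strand from 5′ to 3′. Capitals mark a match to TTCNNNGAA, the wider form of the BCL6 and STAT motif.
CD86 promoter at the first start (chr3:122055112-122055361): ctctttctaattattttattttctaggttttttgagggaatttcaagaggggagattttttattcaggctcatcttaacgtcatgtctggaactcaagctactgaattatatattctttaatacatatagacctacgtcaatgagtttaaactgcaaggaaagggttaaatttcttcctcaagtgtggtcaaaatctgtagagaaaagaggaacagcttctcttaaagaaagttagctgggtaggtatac
CD86 promoter at the other start (chr3:122077534-122077783): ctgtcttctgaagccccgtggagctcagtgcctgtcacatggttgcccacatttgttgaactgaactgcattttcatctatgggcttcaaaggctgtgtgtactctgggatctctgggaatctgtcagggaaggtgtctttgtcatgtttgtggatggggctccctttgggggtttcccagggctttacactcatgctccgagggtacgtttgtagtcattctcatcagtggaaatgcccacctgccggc
CD274 promoter (chr9:5450292-5450541): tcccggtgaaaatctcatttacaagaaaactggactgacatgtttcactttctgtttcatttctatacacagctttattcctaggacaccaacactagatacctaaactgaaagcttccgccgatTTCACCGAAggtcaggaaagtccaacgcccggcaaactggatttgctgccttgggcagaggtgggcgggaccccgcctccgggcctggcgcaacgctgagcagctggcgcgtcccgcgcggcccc

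The replicate 1 peak covered 249 of the 250 bases at the first CD86 start, and the replicate 2 peak 185 of those at the other. GC content was 34% at the first start and 52% at the other. The CD274 stretch had 54.8% and was covered over all 250 bases by a replicate 1 peak.

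The remaining 4 peaks at CD86 lay 33.8 to 41.8 kb outside the gene, inside ILDR1, a neighbouring gene on the minus strand that overlaps the first 6.29 kb of CD86. A group of 3 replicate 1 peaks had summits 36.1, 35.2 and 33.8 kb from CD86, with fold enrichments of 3.45, 2.48 and 3.40. Their −log10 q values were 2.65, 1.53 and 2.58, so all were weaker than the peak at the first start. The replicate 2 peak there had its summit 41.8 kb from CD86, with a fold enrichment of 3.74 and a −log10 q of 3.38. It ended 4.85 kb from the nearest of the 3, which was the smallest gap between peaks of different replicates at any of the 9 genes. The peak at the first CD86 start also lies inside ILDR1, so the assignment of 5 of the 6 peaks to CD86 rests on the 50 kb rule or is shared with that gene.

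**Figure D2:**
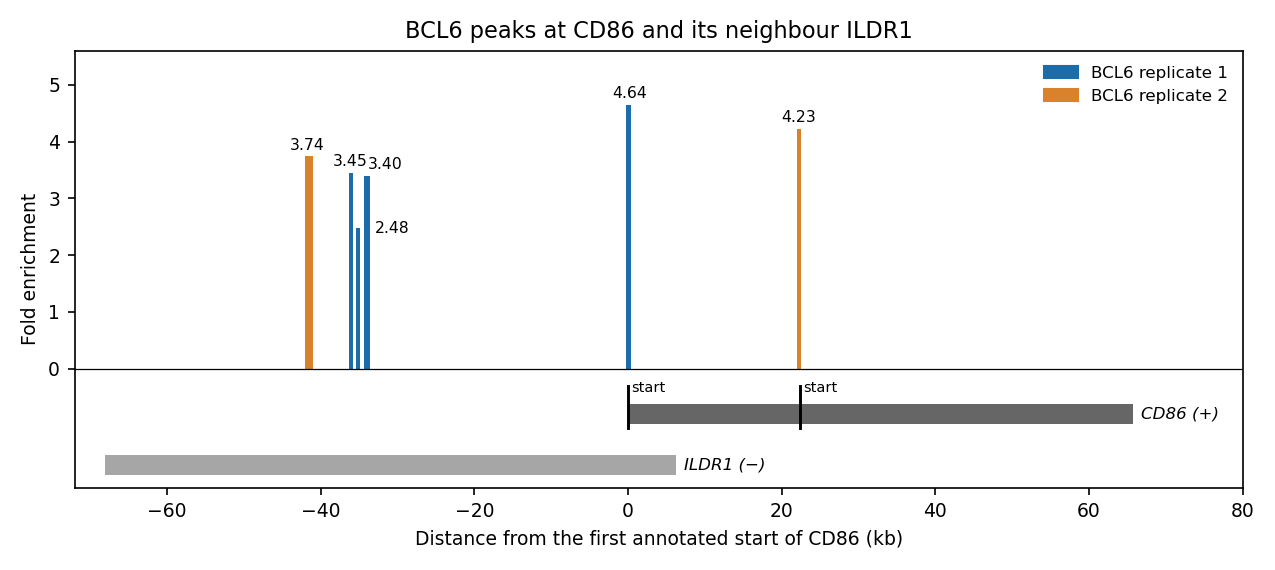
Fold enrichment of each BCL6 peak at CD86 against the distance in kb from the first annotated start, in blue for replicate 1 and orange for replicate 2, with narrow peaks drawn wider than they are; bars below show CD86 with its 2 starts and the neighbour ILDR1. The peaks at the starts had fold enrichments of 4.64 in replicate 1 and 4.23 in replicate 2 and lie 21.6 kb apart.

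CD80, the other B7 ligand of CD28, had no summit within 100 kb in either list. The gene lies on chromosome 3 from 119524293 to 119559614. The nearest summit was 790 kb away in replicate 1 and 533 kb away in replicate 2. The nearest reproducible region was 3120 kb away, beside PARP14, and its fold enrichments were 4.40 in replicate 1 and 5.75 in replicate 2.

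CD274, the gene of PD-L1, had 2 peaks in replicate 1 and none in replicate 2. The gene lies on chromosome 9 from 5450542 to 5470554, on the plus strand. A peak from 5450164 to 5451793 covered its start, with the summit 283 bp before it. The fold enrichment was 4.95, with a −log10 q of 5.35 and a pileup of 17 (95% interval 9.90 to 27.2). Of the replicate 1 peaks 88.1% had an equal or lower fold enrichment, but 22.8% had an equal or lower pileup, so a high ratio stood on few fragments. The recovered background there was 2.64, against a median of 5.90 in that list.

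The stronger of the CD274 peaks had its summit 12.9 kb before the gene, inside PLGRKT, a plasminogen receptor gene on the minus strand, whose upper end lies 12.2 kb from CD274. The summit was 725 bp inside that end, so this peak lies at the start of PLGRKT. It ran from 5437528 to 5438277, with a fold enrichment of 5.36, a −log10 q of 13.2 and a pileup of 38 (26.9 to 52.2). This was the highest −log10 q among the 15 peaks, and 94.2% of the replicate 1 peaks had an equal or lower one. The nearest replicate 2 summit was 452 kb from it. For the gene itself the nearest replicate 2 summit was 465 kb away.

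PDCD1LG2, the gene of PD-L2, lies 40.0 kb beyond CD274, on chromosome 9 from 5510531 to 5571282. Its only summit within 50 kb was a replicate 1 summit 46.8 kb beyond the upper end and 11.0 kb from RIC1. That peak was near the calling threshold, with a fold enrichment of 3.32, a −log10 q of 1.34 and a pileup of 9 (4.12 to 17.1). Only 0.459% of the replicate 1 peaks had an equal or lower −log10 q. The peak at the CD274 start was 60.3 kb from PDCD1LG2, outside the limit.

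ICOSLG, the ligand of ICOS, had 2 replicate 1 peaks and no replicate 2 peak. The gene lies on chromosome 21 from 44216981 to 44240943 on the minus strand, so the lower coordinate is its 3′ end. Both summits lay beyond that 3′ end, 17.1 and 16.5 kb from the gene, and ICOSLG was the nearest protein-coding gene to each. The peaks, from 44199751 to 44200048 and from 44200317 to 44200625, had fold enrichments of 6.25 and 5.40, the largest and the second largest ratio of the 11 replicate 1 peaks. Their −log10 q values were 6.72 and 5.46. Each had a pileup of 15 (8.40 to 24.7) over backgrounds of 1.56 and 1.97, and 14.8% of replicate 1 peaks had an equal or lower pileup. The nearest replicate 2 summit to the gene was 278 kb away.

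CD40, the receptor that gives this group its name, had no summit within 100 kb. It lies on chromosome 20 from 46118314 to 46129858. The nearest summit was 559 kb away in replicate 1, with TP53RK as its nearest gene, and 750.1 kb away in replicate 2, with SYS1 as its nearest gene. TNFRSF14, on chromosome 1 from 2554234 to 2563829, also had none within 100 kb. Here both lists had their nearest summit at the same place, 263 kb away at SKI, a reproducible region with fold enrichments of 8.73 in replicate 1 and 5.10 in replicate 2. The lists thus held a strong shared region in that part of the chromosome, but outside the limit for TNFRSF14.

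CD70, the ligand of CD27, had 1 peak in each list. It is 9.50 kb long, on chromosome 19 from 6581648 to 6591150. The gene is not in the promoter table that gave strands and starts, so neither end is called its start here. The replicate 1 peak, from 6590367 to 6590834, had its summit inside the gene, 462 bp from the upper end, with a fold enrichment of 3.17 and a −log10 q of 4.89. Its pileup was 32 (21.9 to 45.2). The replicate 2 peak, from 6577345 to 6578059, had its summit 3.79 kb outside the lower end, with a fold enrichment of 4.82 and a −log10 q of 10.7. Its pileup was 36 (25.2 to 49.8), which was the highest of the 4 replicate 2 peaks. The summits were 12.8 kb apart. CD70 was the nearest or overlapping gene in each case. By −log10 q the replicate 2 peak ranked high, with 91.7% of that list equal or lower, yet it overlapped no replicate 1 peak.

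SLAMF1 lies on chromosome 1 from 160608106 to 160647044 on the minus strand, in a cluster of SLAM family genes. It too had 1 peak in each list. The replicate 2 peak, from 160624750 to 160625090, lay inside the gene, 22.0 kb from its start, with a fold enrichment of 4.03, a −log10 q of 3.24 and a pileup of 15 (8.40 to 24.7). The replicate 1 peak, from 160673063 to 160673564, lay 26.2 kb before the start, with a fold enrichment of 4.64, a −log10 q of 4.86 and a pileup of 17 (9.90 to 27.2). Its nearest gene was not SLAMF1 but CD48, another SLAM family member, at 5.47 kb. The 2 summits were 48.3 kb apart.

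**Figure D3:**
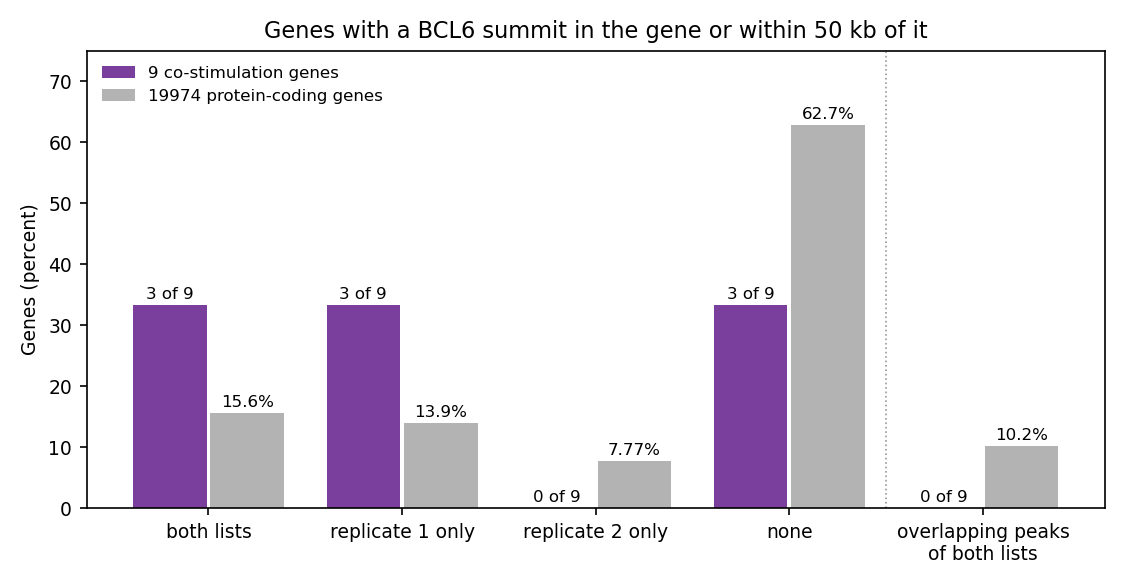
Percent of the 9 co-stimulation genes (purple, left in each pair) and of 19974 protein-coding genes (grey) with a BCL6 summit in the gene or within 50 kb in both lists, replicate 1 only, replicate 2 only or none, and, right of the dotted line, with overlapping peaks of both lists. Of the 9 genes 3 had a summit in both lists and 0 had overlapping peaks, against 15.6% and 10.2% of all genes.

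How the 15 peaks as a group stood against their lists differed by measure. The 11 replicate 1 peaks had fold enrichments of 2.48 to 6.25 with a median of 4.64, against a median of 3.55 for that whole list. Their −log10 q values ranged from 1.34 to 13.2 with a median of 4.89, against 3.94. The pileups ran from 9 to 38 with a median of 17, below the list's 23. The 4 replicate 2 peaks had fold enrichments of 3.74 to 4.82 with a median of 4.13, against 3.74 for the list. Their −log10 q values had a median of 3.93, against 3.77. The pileups ran from 15 to 36 with a median of 18.5, against 21. In both lists, then, the median ratio at these genes was above that of the list and the median fragment number below it. On average the 9 genes had 1.22 summits per gene in replicate 1 and 0.444 in replicate 2, against 0.542 and 0.386 for all protein-coding genes. Of the 15 peaks 8 were inside or nearest to the gene they were assigned to, and 7 were nearer to another protein-coding gene or inside one.

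**Figure D4:**
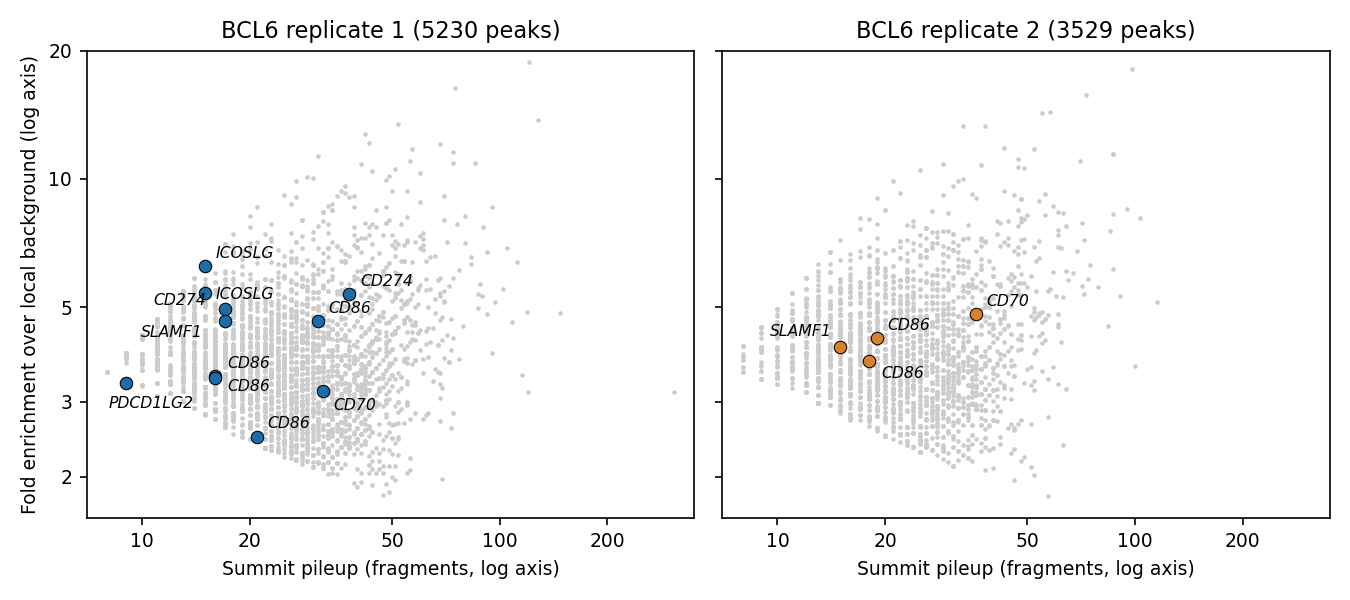
Fold enrichment against recovered summit pileup (both log axes) for every peak of a replicate on chromosomes 1 to 22 and X (grey) and for the peaks assigned to the named genes (coloured), replicate 1 on the left and replicate 2 on the right. The coloured points lie within the cloud, with pileups of 9 to 38 in replicate 1 and 15 to 36 in replicate 2.

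Whether a peak was found in the other list depended on its strength across each whole list. With a −log10 q of 5 to 10, 32.6% of replicate 1 peaks overlapped a replicate 2 peak, and with 10 or more 69.8% did. Below 5 the shares were 19.9% for 3 to 5 and 13.3% for lower values. Of the 11 replicate 1 peaks at the 9 genes, 4 were below 3, 2 were from 3 to 5, 4 from 5 to 10 and 1 above 10. For replicate 2 the share was 31.8% at a −log10 q of 3 to 5, where 3 of the 4 peaks lay, and 84.7% at 10 or more, where the CD70 peak lay. In each range below a −log10 q of 10, most peaks of either list had no counterpart. Of the 11 replicate 1 peaks and the 4 replicate 2 peaks at the 9 genes, 0 had a counterpart. Whether their strength accounts for this was not tested. The peak at the start of PLGRKT and that below CD70 were of a strength at which most peaks had a counterpart. With read totals unknown, a missing peak does not show that BCL6 was absent.

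**Figure D5:**
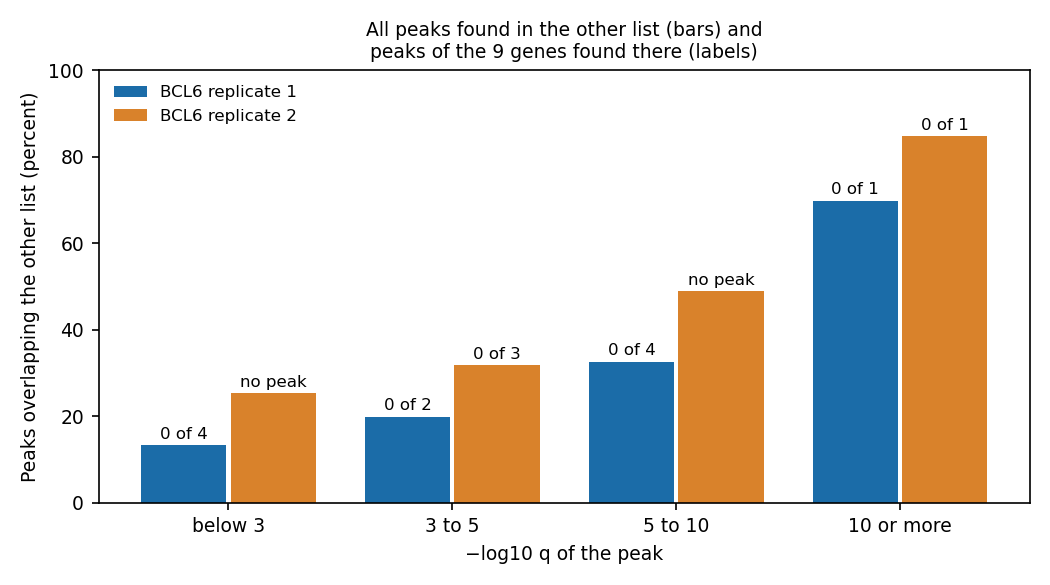
Percent of all peaks of a list that overlap a peak of the other list, by −log10 q, in blue for replicate 1 and orange for replicate 2. Labels count the peaks at the 9 genes that had a counterpart, 0 in each range that held such peaks. Replicate 2 held no peak of these genes below 3 or from 5 to 10. The share over all peaks reached 69.8% in replicate 1 and 84.7% in replicate 2 at a −log10 q of 10 or more.

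Of the 9 genes, 6 have 1 or more starts in the promoter table. CD70 is not among them, so its replicate 1 summit, 462 bp from the upper end of the gene, was not counted here. CD86 and CD274 had a summit within 1 kb of a start, while CD80, TNFRSF14, ICOSLG and SLAMF1 had none. The 2 of 6 compare with 13.5% of 15812 protein-coding genes in that table with a summit this close in at least 1 list. In replicate 1 both genes had one, against 9.59% of all. In replicate 2 CD86 alone did, against 7.3%, and it was the one gene of the 6 counted in both lists, at different starts, against 3.4%. This count was added after the values had been seen. The motif TTCCTNGAA, a BCL6 consensus, was searched on both strands of the 300-base promoters and was in 0 of the 7 promoters of these genes, against 1.29% of 22132 promoters. TTCNNNGAA, which contains it, was in 1 of 7, that of CD274, against 6.79% of all. The CD274 match, TTCACCGAA, lies on chromosome 9 from 5450417 to 5450425, with its middle base 162 bp from the summit of the replicate 1 peak. A match is a string of letters and not a measured site, and none was searched under peaks outside the promoters.

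Genes that act with these ligands and receptors were described by the same rule. Of 59 related genes in 5 lists, 14 (23.7%) had summits in both lists and 9 (15.3%) a reproducible region within 50 kb, against 15.6% and 10.2% of all protein-coding genes. CD40 signalling genes had one at 3 of 13, namely NFKB1, BIRC3 and BIRC2. The region in NFKB1, which encodes an NF-kB subunit, had fold enrichments of 4.01 in replicate 1 and 3.46 in replicate 2. That beside BIRC3, an inhibitor of apoptosis induced by NF-kB, had 3.58 and 4.54 at 1.01 kb. It is the stronger, by the smaller of both fold enrichments, of 2 regions within 50 kb of BIRC3, and also of the 2 within 50 kb of its neighbour BIRC2, from which it is 30.7 kb away. Of the 13 genes 6 had no summit in either list, against 62.7% of all protein-coding genes.

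Among the TNF superfamily 3 of 16 had a reproducible region. The strongest lay 3.85 kb from TNFRSF13C, the BAFF receptor gene, with fold enrichments of 6.93 in replicate 1 and 5.59 in replicate 2, although SHISA8 was nearer. CD27, the receptor for CD70, had one inside the gene with 2.22 and 2.64. TNFSF13 had one at 22.3 kb with 3.10 and 2.12, nearest to MPDU1. In the SLAM family 2 of 10 had one, and it was the same region, inside SLAMF6 from 160522363 to 160522760 and 18.7 kb from CD84, with 2.31 and 2.83. Of the B7 and CD28 families 1 of 12 had one, VSIR at 20.1 kb with 4.09 and 2.83, inside C10orf105 and CDH23, and of the other checkpoint and adhesion ligands 0 of 8. For comparison BCL6, the gene of the antibody's target, had 3 reproducible regions within 50 kb, the strongest 132 bp from the gene with 6.38 in replicate 1 and 11.5 in replicate 2.

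Near the 50 kb limit, the outermost summits inside were those at 46.8 kb from PDCD1LG2 and at 41.8 kb from CD86. Just outside lay a replicate 2 summit 59.4 kb from CD70, with a fold enrichment of 4.18, and the CD274 start peak, 60.3 kb from PDCD1LG2. A longer gene has a wider window. With all genes split into 4 equal classes by length, the share with summits in both lists was 12.2% in the shortest class and 19.2% in the longest. CD70, with CD40, CD274, TNFRSF14 and ICOSLG, is in the second class (14.4%), SLAMF1, with CD80 and PDCD1LG2, in the third (16.5%), and CD86 in the longest.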

How the data were processed

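CUT&RUN with a BCL6 antibody was carried out by the authors on nuclei of SUDHL5 cells in 2 biological replicates. Samples were grouped by their titles. The build was hg38, and the tools named, per the submitters' processing notes, are MACS2, Bowtie2, FastQC, cutadapt, SAMtools, Picard, deepTools and bedtools; versions, roles, settings and the control of the peak caller were not given in the sources used here. Peaks were called per sample. Deposited values are the authors' fold enrichment (a ratio of summit to local background), −log10 p and −log10 q. The IgG samples were not used here.

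Genes and promoters came from RefSeq tables of GRCh38.p14, the assembly of hg38; exons and introns were not separated. Positions are 1-based. Summits (start plus offset) were assigned to genes within 50 kb. The related lists hold 13, 12, 16, 10 and 8 genes. Whole-number summit pileups were solved from fold enrichment and −log10 p, as the pileup whose Poisson probability fits best; all 5230 and 3529 peaks on chromosomes 1 to 22 and X fitted within 0.001. Exact Poisson 95% intervals take in counting error alone and treat each fragment as a separate observation. PCR duplicates of a molecule are not separate observations, and whether they were removed was not given. The intervals may therefore be too narrow. No library size was available, and no test was run. The members and lists were chosen with earlier results of these data known. All 9 members are named, with up to 4 genes of each related list that had a reproducible region, by the smaller of both fold enrichments, BCL6, and the nearest gene of a described region. The counting was tested on simulated data. Python 3.11.15, pandas 2.3.3 and scipy 1.17.1 were used.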

Additional observations from a re-analysis of the deposited data

How the results depend on the processing

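The count of reproducible regions at the 9 genes was 0 in 10 of 11 alternatives; with 100 kb on both sides it was 1, SLAMF1, against 15.1% of all protein-coding genes. The count of genes with a summit in both lists, 3, was 0 with a −log10 q of at least 5. It was 1 both for the gene body alone and with 1 kb on both sides. With 10 kb on both sides and by nearest gene it was 2, CD86 and CD70. Using 1 list, the genes with a summit numbered 3 to 6. The count with none, 3, was 4 with a −log10 q of at least 3 and by nearest gene. It was 5 with a −log10 q of at least 5, with 1 kb or with 10 kb, and 6 for the gene body alone. In a single list it was 3 to 6. The share of all protein-coding genes with none was 62.7% at the main setting and is not given for these alternatives. The changes in this count therefore have no background beside them. CD274, PDCD1LG2 and ICOSLG have no summit once replicate 1 is left out. Of all protein-coding genes, the share with summits in both lists was 5.78% with a −log10 q of at least 5, 4.53% for the gene body alone, 6.06% with 1 kb, 8.06% with 10 kb, 24.1% with 100 kb and 6.73% by nearest gene. The share with a reproducible region was 4.49% with a −log10 q of at least 5, 6.67% with a fold enrichment of at least 3, 3.28% for the gene body alone, 4.47% with 1 kb, 5.78% with 10 kb and 4.79% by nearest gene. In alternatives added after seeing the data, the 9 related genes with a region numbered 5 with 10 kb and 1 with a −log10 q of at least 5. Leaving out a replicate gives no value for reproducible regions. No paired analysis was possible because no IgG values were used here. Read totals are unknown, and with summit pileups of 9 to 38 a peak missing from 1 list does not show that BCL6 was absent.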

Other observations

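For each of the 9 genes the nearest reproducible region lay outside the 50 kb limit, at 85.7 kb (SLAMF1) to 4389 kb (CD70). The nearest to CD274, at 465 kb, was at JAK2, a cytokine receptor kinase gene on the same chromosome arm, with fold enrichments of 2.17 in replicate 1 and 3.82 in replicate 2 and −log10 q values of 1.65 and 6.42. It was also the nearest to PDCD1LG2, at 525 kb. The nearest to SLAMF1, at 85.7 kb, was the SLAMF6 region, where the summits of the 2 lists were 38 bp apart and the −log10 q values were 1.43 and 2.94, the first close to the lowest in its list. The nearest to CD86, beside PARP14, was 558 kb away. Below the lower end of CD70, a replicate 1 summit 13.99 kb from TUBB4A and a replicate 2 summit 8.81 kb from TNFSF9, the ligand of the co-stimulatory receptor 4-1BB, lay 5.37 kb apart without overlap, with fold enrichments of 3.28 and 4.18.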
